A study of Mus musculus with 4 samples.

Results

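The p53 targets of cell death are genes that the tumour suppressor p53 is known to switch on and whose products act in, or close to, apoptosis. The 10 members are Bax, Bbc3 and Pmaip1, which act at the mitochondrion, the receptors Tnfrsf10b, Fas and Eda2r, and Phlda3, Aen, Perp and Trp53inp1, which act elsewhere in the cell. They were found on the array as every probe that is not a control and carries a member's gene name. This gave 13 of 39429 probes, with at least 1 probe for each of the 10 genes. After a filter on dim probes 9 of the 10 could be tested, among 16112 genes in all. Aen, Eda2r and Trp53inp1 had 2 probes each and the other members 1, and each probe was a single spot on each array.

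The study compared whole liver RNA of mice given an adeno-associated virus that carries Cre recombinase (AAV_Cre) with RNA of mice given a control virus (AAV_Null). All mice were C57B/6 females aged 8 to 10 weeks, and both alleles of Trib1 were floxed in each of them, the AAV_Null mice included. RNA was taken 1 week after the injection and after a fast of 4 hours, to ask how losing Trib1 in the liver alters gene expression there. Trib1 encodes a pseudokinase that leads the transcription factor C/EBPα to its degradation. Each of 4 Agilent arrays of 1 slide held 1 RNA of each treatment, and the dyes were turned round between pairs of arrays: arrays 1 and 2 carried AAV_Cre as Cy5, arrays 3 and 4 as Cy3. The labels do not name the promoter that drives Cre, nor say whether an RNA came from 1 animal or several. Cre and the deletion it makes came together in the AAV_Cre mice, so their effects cannot be told apart.

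Some facts of the arrays bear on every value. All 6 hepatocyte markers, Alb, Ttr, Apoa1, Serpina1c, Cyp2e1 and Hnf4a, were well above background. Trib1 went against its label: the probe that stood for it was higher in RNA labelled AAV_Cre on 4 of 4 arrays, with a log2 ratio of 0.94 ± 0.08 (SE, n = 4; limma, adjusted p = 0.0226). A further probe of its RefSeq transcript had 1.29 and a probe of another transcript -0.047. The labels do not give which part of the gene is floxed, and transcript left outside that part would still bind a probe, so Trib1 cannot serve as a check of the labels. Every ratio below is AAV_Cre over AAV_Null as labelled. Last, arrays of 1 dye orientation resembled each other: across genes their log2 ratios correlated at 0.66 (arrays 1 and 2) and 0.48 (arrays 3 and 4), against 0.071 to 0.19 across orientations. These correlations run across genes, which are not replicates. A dye effect was fitted for every gene, and it takes up any difference between the RNA pairs of the orientations, so the standard errors below do not hold that difference.

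p53 is a transcription factor that is held low by the ubiquitin ligase Mdm2 and is released by DNA damage and other stress. It then raises genes of growth arrest, of repair and of cell death. Among its death targets, Bax opens the outer mitochondrial membrane, the small proteins PUMA (Bbc3) and Noxa (Pmaip1) block the guards of that membrane, and the death receptors couple ligands outside the cell to caspases. In the liver, Fas and the TRAIL receptor are known routes to hepatocyte apoptosis.

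In promoter windows of 300 bases (250 before the start to 50 after it, RefSeq, GRCm38.p6) the p53 half-site, the 10-base consensus that p53 binds in pairs, was searched without mismatch. The consensus reads the same on both strands. Windows were at hand for 6 of the 10 members (Phlda3, Bbc3, Bax, Aen, Fas and Eda2r), and 2 of the 6, Bax and Aen, held a half-site, beside 9.55% of the 27025 genes with a window. Over all 32851 windows 8.36% held one, and 0.0731% held a pair with a spacer of up to 13 bases, while 0 of the 9 member windows did. Both matches are shown because Bax and Aen are among the members that rose, with the half-site in capitals and 5′ to 3′ on the strand of the gene. The Bax stretch is chr7:45467070-45467119 on the minus strand, and the Aen stretch is chr7:78895917-78895966 on the plus strand.
Bax: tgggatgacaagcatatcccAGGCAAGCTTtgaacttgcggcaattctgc
Aen: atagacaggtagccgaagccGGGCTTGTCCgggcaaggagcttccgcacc
The half-site starts 201 bases before the Bax start. The Aen half-site lies 121 bases before 1 annotated start and inside the window of the other, so its 2 windows hold the same site. These matches are descriptions of the letters in the windows and say nothing about p53 binding.

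Some of the members were higher in RNA labelled AAV_Cre. Phlda3, Tnfrsf10b, Aen and Bax rose, by 4.87-fold, 1.91-fold, 1.90-fold and 1.53-fold. Trp53inp1, at 2.22-fold, had a ratio above 0 on all 4 arrays and missed the threshold. Fas, Bbc3, Pmaip1 and Perp lay between 0.839-fold and 1.09-fold, and Eda2r was not well above background. Thus 4 of 9 members tested rose, 0 fell and 5 did not pass an adjusted p of 0.05 in limma, with p-values adjusted over 16112 genes. Of all genes tested 2.8% passed, 1.79% as higher and 1.01% as lower. The members were chosen with earlier results of these data known, so counts beside these shares are descriptions and not tests. At an unadjusted p of 0.05 the members were 5 higher and 1 lower, beside 11.7% and 11.2% of all genes. By probe, 5 of the 11 member probes tested passed, against 2.37% of all probes. Both Aen probes, which overlap in sequence, were among the 5, so this count adds no gene to the 4. All 11 probes of the 9 tested members were well above background in all 8 channels, so no member passed the filter on dim probes through 1 group alone. The count of 4 rested on all arrays. Without array 1 or array 2 it was 0, and without array 3 or array 4 it was 1, Phlda3, with 3 arrays and 1 residual degree of freedom left.

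The median log2 ratio of the 9 members was 0.61, beside -0.0025 for all genes tested. On arrays 1 to 4 the members' median was 0.17, 0.42, 0.88 and 0.74, where array 1 covered 8 members because Aen had no value there. This median was lower on the arrays with AAV_Cre in Cy5 than on those with AAV_Cre in Cy3. Bax was itself the median member in the fit and on arrays 2 and 3, so this split is largely that of Bax. Phlda3, Aen and Bbc3 were also lower with AAV_Cre in Cy5 on the arrays that measured them. The ratios of Tnfrsf10b, Trp53inp1, Fas, Pmaip1 and Perp did not part by orientation, though those of Tnfrsf10b did in the authors' deposited log2 values. The median of the 6 hepatocyte markers was higher with AAV_Cre in Cy5, at 0.23, 0.30, -0.51 and -0.71. Its part in the members' values was not tested. Of the 8 members measured on 4 arrays, 4 had every AAV_Cre channel above every AAV_Null channel (Phlda3, Bax, Tnfrsf10b and Trp53inp1), where 3.18% of all genes measured on 4 arrays did. The reverse held for 0 members and 2.66% of genes. The same 4 members had a ratio above 0 on all arrays, as did 12.1% of genes. An exact sign permutation test over 4 arrays cannot go below a two-sided p of 0.125, and Phlda3, Bax, Tnfrsf10b, Trp53inp1 and Perp each stood at that floor.

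**Figure D1:**
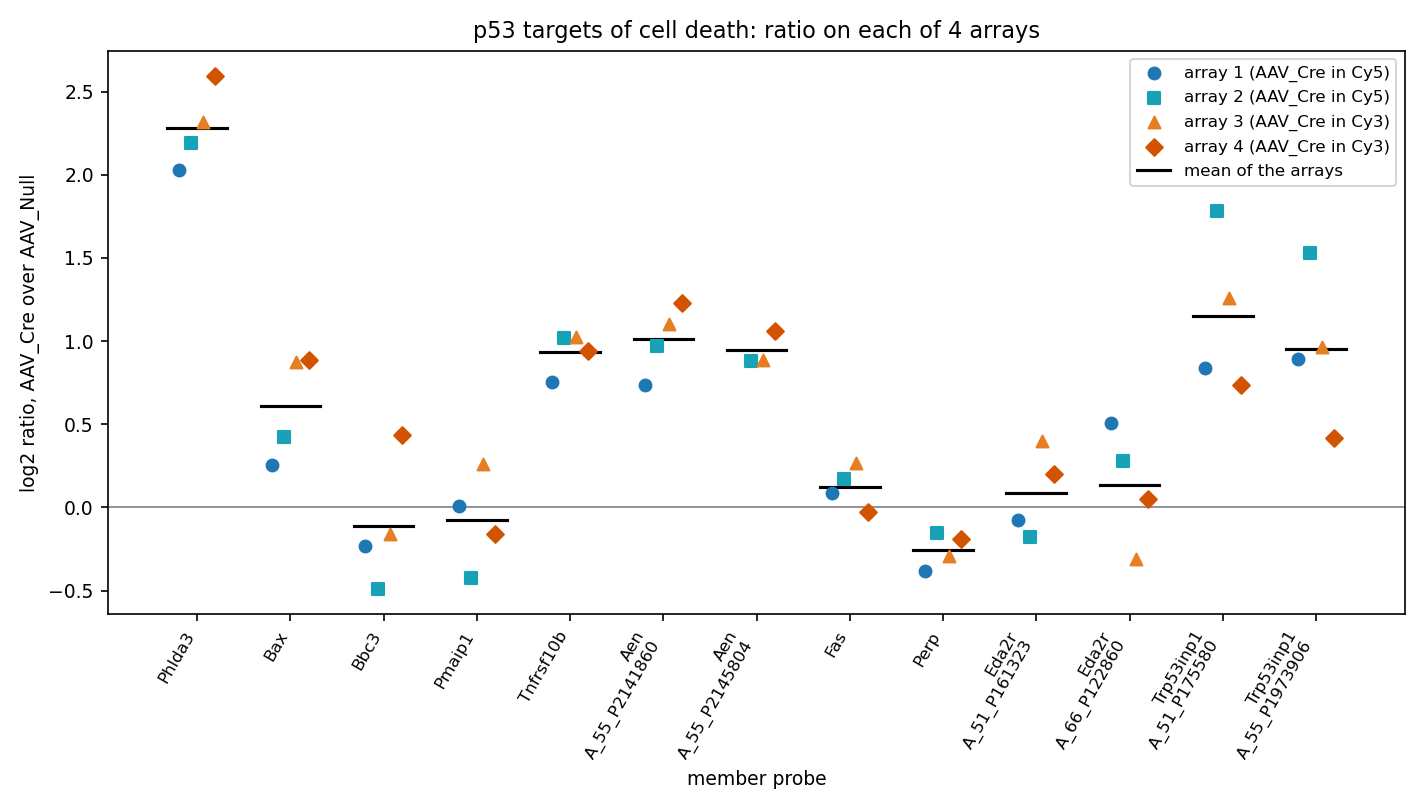
The log2 ratio of AAV_Cre over AAV_Null (y axis) of each of the 13 member probes (x axis) is plotted for each array by symbol and colour, with the mean as a bar. Phlda3 sits between 2.03 and 2.59, Tnfrsf10b, Aen, Bax and Trp53inp1 lie above 0 on every array that measured them, and Perp lies below 0 on all 4.

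Of the mitochondrial members, Bax rose while Bbc3 and Pmaip1 did not pass. Bax encodes the pore-forming effector of the BCL2 family. Its probe lies at chromosome 7, 52717122 to 52717181 (mm9, the build of the array files). On arrays 1 to 4 it had normalised log2 intensities of 12.14, 12.08, 12.40 and 12.34 in RNA labelled AAV_Cre, against 11.89, 11.65, 11.53 and 11.45 in RNA labelled AAV_Null. Every AAV_Cre value lay above every AAV_Null value, and the groups did not overlap. The log2 ratio was 0.61 ± 0.05 (SE, n = 4 arrays), with a 95% interval of 0.47 to 0.75 and an adjusted p of 0.0232 in limma.

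The Bax ratio differed between the dye orientations. It was 0.26 and 0.42 on arrays 1 and 2, with AAV_Cre in Cy5, and 0.88 and 0.89 on arrays 3 and 4, with AAV_Cre in Cy3. Within the orientations the mean was 0.34, or 1.27-fold, and 0.88, or 1.84-fold. The fitted dye effect of -0.27 had an adjusted p of 0.0897 over probes in limma. Without a dye effect in the fit, which puts this split into the error, Bax kept its log2 ratio of 0.61 and its adjusted p was 0.0987.

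Bbc3 encodes PUMA, a BH3-only protein that neutralises the survival members of the BCL2 family. Its probe lies on chromosome 7, 16903403 to 16903462 (mm9). It had 9.69, 9.67, 9.60 and 9.69 on arrays 1 to 4 in RNA labelled AAV_Cre, against 9.92, 10.16, 9.76 and 9.26 in RNA labelled AAV_Null. The AAV_Cre values were nearly alike (SD 0.043, n = 4), the AAV_Null values were spread around them (SD 0.38, n = 4), and the groups overlapped. This gave a log2 ratio of -0.11 ± 0.12 (SE, n = 4), with a 95% interval of -0.42 to 0.20 and an adjusted p of 0.613 in limma. It was below 0 on arrays 1 to 3 and 0.43 on array 4.

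Pmaip1 encodes Noxa, a BH3-only protein that binds MCL1. Its probe lies on chromosome 18. Its log2 intensities were 7.69, 6.89, 7.76 and 7.74 on arrays 1 to 4 in RNA labelled AAV_Cre, against 7.68, 7.32, 7.50 and 7.90 in RNA labelled AAV_Null. The groups overlapped, with ratios on both sides of 0. The fit gave -0.078 ± 0.11 (SE, n = 4), with a 95% interval of -0.37 to 0.22 and an adjusted p of 0.716 in limma.

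Of the receptors, Tnfrsf10b rose, Fas did not pass and Eda2r could not be measured. Tnfrsf10b encodes the mouse death receptor for TRAIL. Its probe lies at chromosome 14, 70184141 to 70184200 (mm9). On arrays 1 to 4 it had 9.11, 9.20, 9.47 and 8.97 in RNA labelled AAV_Cre, against 8.35, 8.18, 8.44 and 8.03 in RNA labelled AAV_Null. The groups did not overlap. The log2 ratio was 0.93 ± 0.07 (SE, n = 4), with a 95% interval of 0.76 to 1.11 and an adjusted p of 0.0175 in limma. Its ratios of 0.75, 1.02, 1.03 and 0.94 did not part by orientation, and the means within the orientations were 0.89 with AAV_Cre in Cy5 and 0.98 with AAV_Cre in Cy3. In the authors' deposited table the same probe had a larger log2 ratio on each array, 1.00, 1.10, 1.24 and 1.21. Those deposited ratios did part by orientation, lower with AAV_Cre in Cy5, so the lack of a split depends on the processing.

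Fas encodes the receptor of Fas ligand and is expressed by hepatocytes. Its probe lies at chromosome 19, 34402164 to 34402223 (mm9). It had 11.63, 11.53, 11.75 and 11.45 on arrays 1 to 4 in RNA labelled AAV_Cre, against 11.54, 11.36, 11.48 and 11.47 in RNA labelled AAV_Null. The ratio was above 0 on 3 of 4 arrays, and the groups overlapped. Its fitted log2 ratio was 0.12 ± 0.07 (SE, n = 4), with a 95% interval of -0.06 to 0.31 and an adjusted p of 0.353 in limma. The upper bound is 1.24-fold.

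Eda2r encodes a receptor for an ectodysplasin of the tumour necrosis factor family. Neither of its probes, on chromosome X at 94531320 to 94531379 and at 94534281 to 94534340 (mm9), was well above background in any of the 8 channels. Their ratios lay between -0.18 and 0.40 and between -0.31 and 0.51, and differed in sign between the probes on arrays 1 to 3. A change of Eda2r could therefore not be measured on these arrays, and no fold is given.

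Phlda3 had the largest ratio of the members and ranked 4 from the highest among 16112 genes, as labelled. It encodes a small protein made of a pleckstrin homology domain, which competes with the kinase AKT for membrane lipids and so dampens survival signals. Its probe lies at chromosome 1, 137665642 to 137665701 (mm9). On arrays 1 to 4 it had 12.12, 11.87, 12.14 and 12.12 in RNA labelled AAV_Cre, against 10.09, 9.67, 9.82 and 9.53 in RNA labelled AAV_Null. The lowest AAV_Cre value was above the highest AAV_Null value by more than the range within either group. The ratio was 4.08-fold, 4.58-fold, 4.99-fold and 6.03-fold on arrays 1 to 4. The fitted log2 ratio was 2.28 ± 0.07 (SE, n = 4), with a 95% interval of 2.10 to 2.47 and an adjusted p of 0.00934 in limma.

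Aen encodes a nuclease that digests DNA and RNA in dying cells. Its 2 probes overlap by 50 of 60 bases. The first 30 bases of each are shown, with the bases they share in capitals, because the probes repeat nearly the same measurement and are not independent.
A_55_P2141860: ttactgggagAAGTCAGCTTGCTCATAGTA
A_55_P2145804: AAGTCAGCTTGCTCATAGTACCAGACCATC
They lie at chromosome 7, 86053197 to 86053256 and 86053207 to 86053266 (mm9). The second, brighter probe stood for the gene, but its spot on array 1 was marked as an outlier and left out. On arrays 2 to 4 it had 14.12, 14.30 and 14.18 in RNA labelled AAV_Cre, against 13.24, 13.41 and 13.12 in RNA labelled AAV_Null. The log2 ratio was 0.93 ± 0.08 (SE, n = 3 arrays), with a 95% interval of 0.71 to 1.15 and an adjusted p of 0.0339 in limma. The first probe, measured on all 4 arrays, had 13.86, 13.91, 14.12 and 14.10 in RNA labelled AAV_Cre, against 13.12, 12.94, 13.02 and 12.87 in RNA labelled AAV_Null. Neither probe had overlapping groups. The first probe had a log2 ratio of 1.01 ± 0.06 (SE, n = 4; limma, adjusted p = 0.0162 over all probes).

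Trp53inp1 had a ratio above 0 on all arrays, and its ratios varied most between them among the members. It encodes a stress protein that partners p53 and takes part in autophagy and cell death. The probe that stood for it, at chromosome 4, 11101174 to 11101233 (mm9), had 14.11, 14.38, 14.32 and 13.73 on arrays 1 to 4 in RNA labelled AAV_Cre, against 13.27, 12.60, 13.06 and 12.99 in RNA labelled AAV_Null. The groups did not overlap. The ratios were 0.84, 1.78, 1.26 and 0.74, so the arrays of each orientation held 1 higher and 1 lower ratio. The log2 ratio was 1.15 ± 0.18 (SE, n = 4), with a 95% interval of 0.67 to 1.64 and an adjusted p of 0.0581 in limma.

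The second Trp53inp1 probe starts at base 659 of the same transcript, far from the base 5041 where the first starts. The first 30 bases of both are shown, because these probes read separate stretches of 1 transcript.
A_51_P175580: gtgtgtttatgggcacaatgttttctctca
A_55_P1973906: aactcctgtcctggtctcagtgaggcgagt
The second lies at 11092530 to 11092589 on chromosome 4 (mm9). Its ratios of 0.89, 1.53, 0.96 and 0.42 had array 2 highest and array 4 lowest, as on the first probe. Its log2 ratio was 0.95 ± 0.15 (SE, n = 4; limma, adjusted p = 0.0561 over all probes). Here the groups overlapped, with 11.61, 11.20, 10.78 and 10.12 in RNA labelled AAV_Cre, against 10.72, 9.67, 9.82 and 9.70 in RNA labelled AAV_Null. Both probes therefore gave a ratio near or above 0.95 and neither passed the threshold. In 6 of 13 other settings the gene did pass, among them the fit without a dye effect (adjusted p = 0.0405) and the authors' deposited log2 values (adjusted p = 0.0285).

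Perp encodes a membrane protein with several membrane-spanning segments that serves in desmosomes and is needed for some p53-driven death. Its probe lies at chromosome 10, 18576697 to 18576756 (mm9). It was the member with a ratio below 0 on 4 of 4 arrays, a pattern that 11.5% of all genes measured on 4 arrays shared. On arrays 1 to 4 it had 13.13, 13.49, 13.42 and 13.59 in RNA labelled AAV_Cre, against 13.51, 13.64, 13.71 and 13.78 in RNA labelled AAV_Null. Between arrays the groups overlapped. Its fitted log2 ratio was -0.25 ± 0.06 (SE, n = 4), with a 95% interval of -0.42 to -0.09, an unadjusted p of 0.0116 and an adjusted p of 0.114 in limma.

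**Figure D2:**
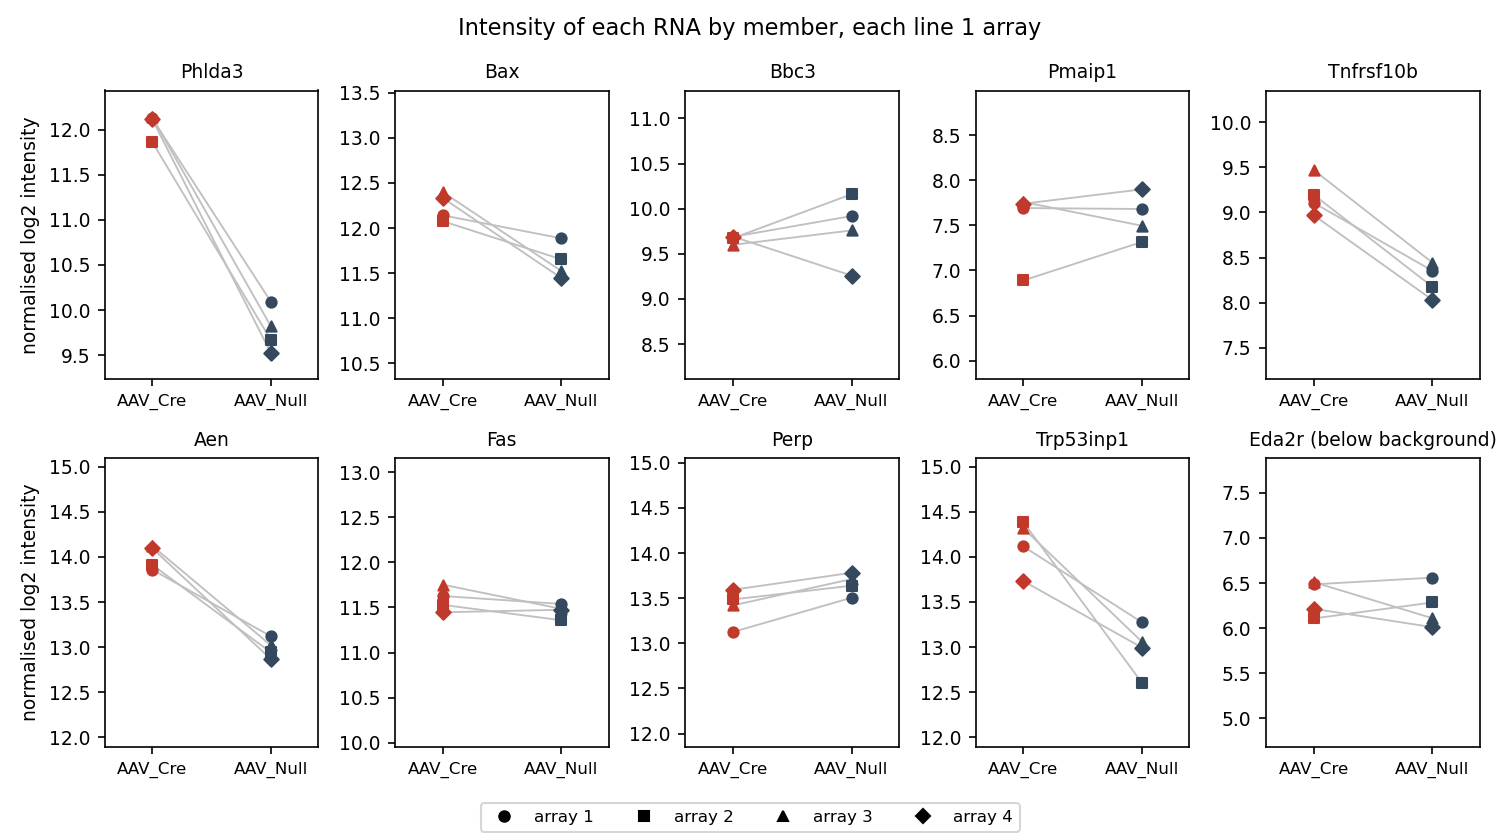
Normalised log2 intensity (y axis, spanning the same range in each panel) is shown for RNA labelled AAV_Cre on the left and RNA labelled AAV_Null on the right, with each line 1 array. For Aen the probe measured on 4 arrays and for Trp53inp1 the brighter probe is drawn. Every line falls to the right in Phlda3, Bax, Tnfrsf10b, Aen and Trp53inp1 and rises in Perp, while lines slope both ways in Bbc3, Pmaip1, Fas and Eda2r.

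The sizes of the ratios also differed in how far they stood from all genes. From the highest ratio down, Phlda3 ranked 4, Trp53inp1 38, Tnfrsf10b 74, Aen 76 and Bax 211 of 16112 genes. Fas ranked 2983, Pmaip1 11444, Bbc3 12567 and Perp 15086. These ranks hold for the labels as given, which Trib1 could not check. With the labels turned, each gene would hold the same rank from the lowest ratio up. Neighbours in this order were not all apart: the 95% intervals of Trp53inp1, Tnfrsf10b and Aen overlapped, and that of Bax overlapped with those of Aen and Trp53inp1. Those of Pmaip1 and Bbc3 overlapped with each other and with both Fas and Perp, while Fas lay above Perp without overlap. The interval of Phlda3 lay above those of all other members.

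**Figure D3:**
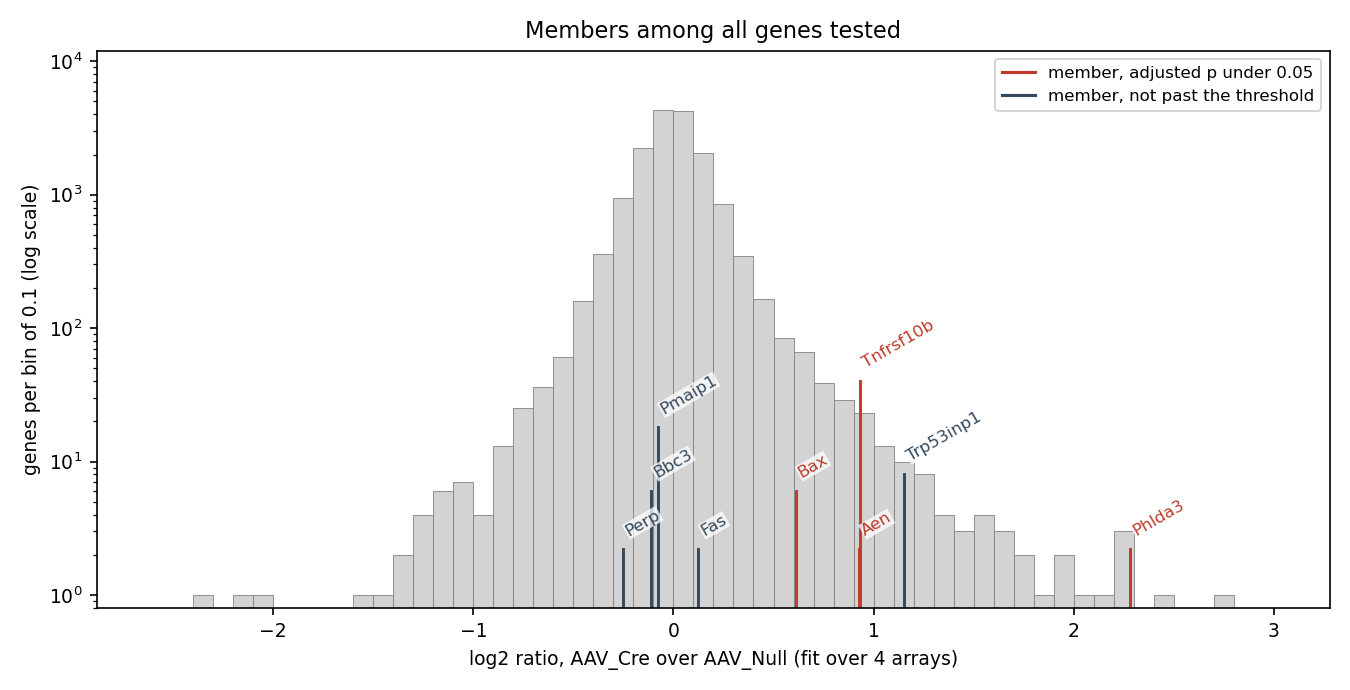
Genes per bin of 0.1 in log2 ratio (y axis, log scale) are plotted against the fitted log2 ratio of AAV_Cre over AAV_Null (x axis), with lines at the 9 tested members. Phlda3 at 2.28 lies in the sparse right tail, Bax, Aen, Tnfrsf10b and Trp53inp1 lie on the right flank, and Fas, Pmaip1, Bbc3 and Perp lie in the bulk of genes.

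The genes nearest to a member were taken by Euclidean distance over the log2 ratios of the 4 arrays. For Phlda3 they were Sult2a3, an unnamed probe, Sult2a4 and Atp8b5, at distances of 0.66 to 0.85. For Bax they were Sun2, Hsd17b10, Abhd5 and Slc20a1, at distances of 0.14 to 0.22. The closest gene to Bax, Sun2, had 0.26, 0.51, 0.80 and 0.80 on arrays 1 to 4 and so the same split by orientation. Few genes had ratios as high as Phlda3, which ranked 4 from the highest, so its nearest genes need not share its pattern. Sult2a3 was highest on array 2, at 2.57, and Phlda3 on array 4, at 2.59. With only 4 arrays, the distance describes these arrays alone.

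Part of the other p53 targets, of growth arrest, repair and feedback, rose too. Of 23 tested genes of this list 9 rose, 0 fell and 14 did not pass, beside 1.79% of all genes that rose. Like the other lists, this list was chosen with earlier results of these data known. The list's median log2 ratio was 0.39, and by array it was 0.38, 0.42, 0.28 and 0.19. Cdkn1a, the cell cycle inhibitor p21, rose by 1.46 ± 0.11 (SE, n = 4) and the arrest protein Gadd45a by 1.29 ± 0.12. With a gene's probes averaged, Cdkn1a had 0.94 (limma, adjusted p = 0.0303). Ccng1, an atypical cyclin, rose by 1.01, the RNA-binding protein Zmat3 by 0.85, the kinase Plk2 by 0.80 and the p53 ligase Mdm2 by 0.66. Gtse1, Epha2 and Dcxr rose by 0.63, 0.60 and 0.39 and were named after their values were seen. Phlda3, at 2.28, was above each of these. The list's count was 0 without array 1, 2 or 4 and 1, Ccng1, without array 3.

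Cdkn1a had 10.14, 10.63, 10.20 and 9.93 on arrays 1 to 4 in RNA labelled AAV_Cre, against 8.91, 8.82, 8.76 and 8.54 in RNA labelled AAV_Null. Mdm2 had 13.36, 13.21, 13.30 and 13.01 in RNA labelled AAV_Cre, against 12.73, 12.38, 12.61 and 12.51 in RNA labelled AAV_Null. In both genes the groups did not overlap, nor did they in Ccng1, Zmat3, Plk2 and Gtse1. They overlapped in Gadd45a, Epha2 and Dcxr. Gadd45a had 9.68 on array 4 in RNA labelled AAV_Cre, against 10.09 on array 1 in RNA labelled AAV_Null. Of all genes measured on 4 arrays, 3.18% had every AAV_Cre channel above every AAV_Null channel. The Trp53 probe itself was well above background in 0 AAV_Cre channels and 1 AAV_Null channel and was not tested.

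The remaining BCL2 family did not rise with Bax. Of 14 tested members 0 rose, 3 fell and 11 did not pass, beside 1.01% of all genes that fell, and the median log2 ratio was -0.065. The 3 that fell promote death. Bmf, a BH3-only protein, fell by 0.89 ± 0.10 (SE, n = 4), Bok, a relative of Bax, by 0.42 ± 0.05 and Bid, which links death receptors to mitochondria, by 0.42 ± 0.05. Bid had 8.98, 9.12, 9.03 and 9.12 on arrays 1 to 4 in RNA labelled AAV_Cre, against 9.44, 9.70, 9.35 and 9.43 in RNA labelled AAV_Null, with no overlap. Bok too had no overlap, while Bmf had 10.03 on array 3 in RNA labelled AAV_Cre, within its AAV_Null range. Of the guards, Mcl1 had -0.30 (limma, adjusted p = 0.0977), with every AAV_Cre channel below every AAV_Null channel. Bcl2l1 had 0.11 (limma, adjusted p = 0.275), with every AAV_Cre channel above every AAV_Null channel. The pattern of Mcl1, shared by Bok and Bid, held in 2.66% of all genes measured on 4 arrays, and that of Bcl2l1 in 3.18%. Bcl2l11, of the same family, was not well above background and was not tested. Each of the 3 calls was lost in the fit without a dye effect, at adjusted p of 0.0538, 0.0641 and 0.0746 for Bmf, Bok and Bid, and with any array left out.

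The partners of the death receptors and the caspases were mostly within the spread. Of 16 tested genes of receptor signalling 1 rose, 0 fell and 15 did not pass, with a median of -0.030, beside 1.79% of all genes that rose and 1.01% that fell. The gene that rose was Tnfrsf23, a mouse decoy receptor for TRAIL, by 0.33 ± 0.05 (SE, n = 4; limma, adjusted p = 0.0483). With the scanner ratio Tnfrsf23 had 0.61 (limma, adjusted p = 0.0192). The ligands Fasl and Tnfsf10, which encodes TRAIL, had 0.11 and -0.095, and the initiator Casp8 had 0.075. Of 19 tested genes of execution 1 rose, 0 fell and 18 did not pass, with a median of -0.018, beside the same shares of all genes. It was Endog, a mitochondrial nuclease, by 0.47 ± 0.05 (SE, n = 4; limma, adjusted p = 0.0310). Casp9 had -0.33 and did not pass, and Apaf1 was not well above background. The calls of Tnfrsf23 and Endog were lost without a dye effect and with any array left out.

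**Figure D4:**
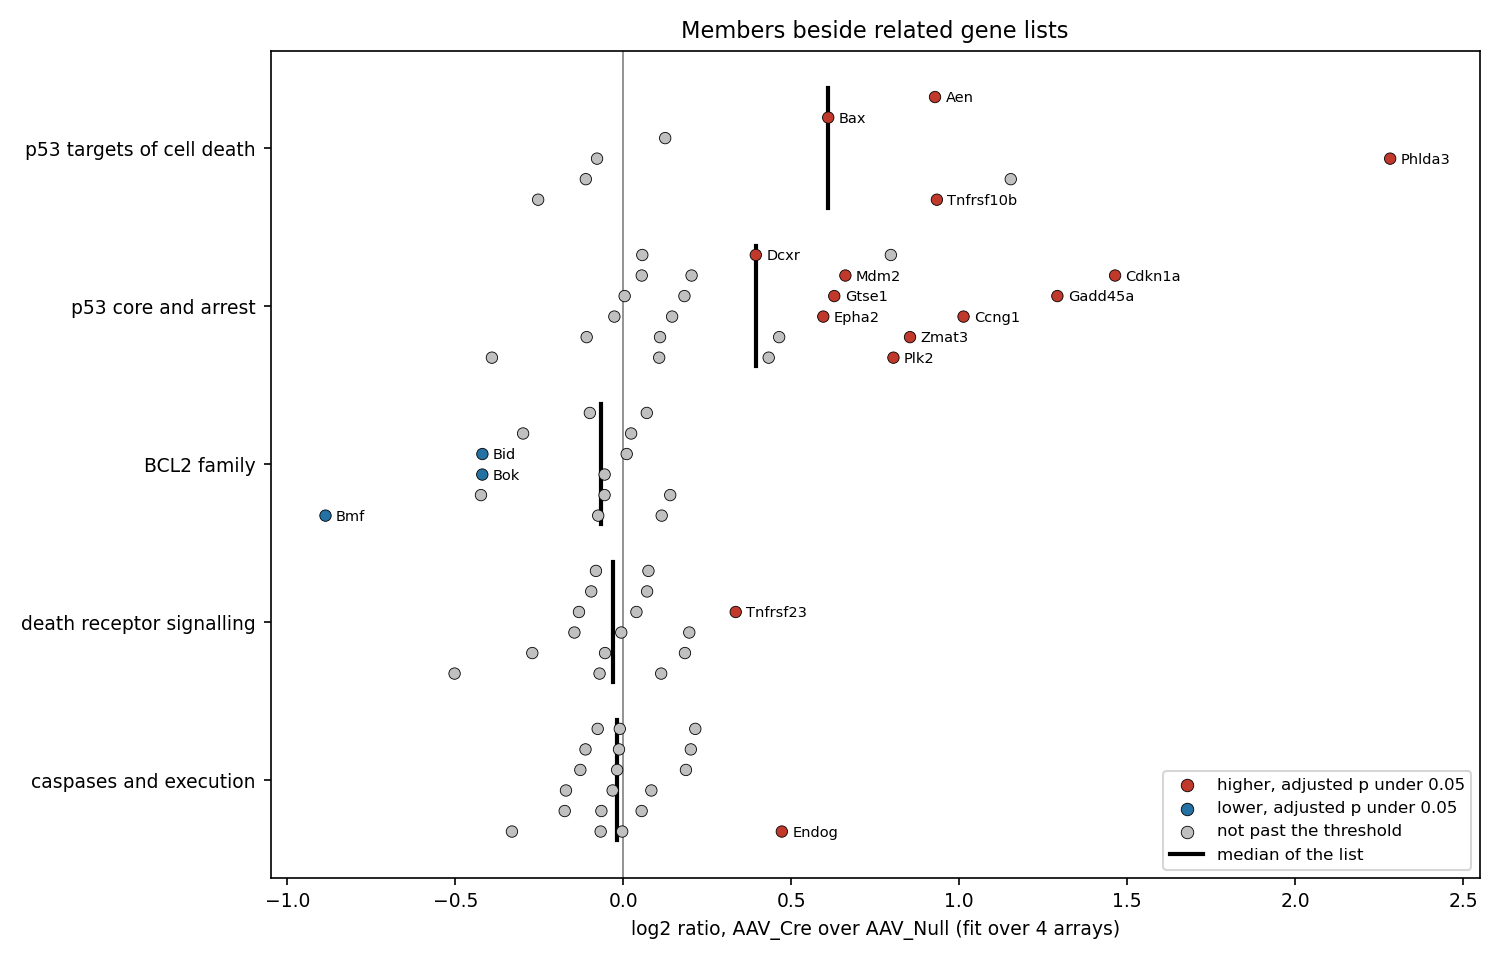
Each point is 1 tested gene at its fitted log2 ratio of AAV_Cre over AAV_Null (x axis), in the row of its list, and bars mark list medians. The points past an adjusted p of 0.05 on the right belong mostly to the p53 targets, those of cell death with a median of 0.61 and those of arrest with 0.39, while the medians of the BCL2 family, receptor signalling and execution lie within 0.07 of 0.

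In whole liver, a change in the number of cells of a type and a change in RNA per cell cannot be told apart. Of the markers of other liver cells, Col3a1, a stellate cell collagen, rose by 0.47 (1 of 4 tested stellate markers; limma, adjusted p = 0.0441), and 0 of the tested markers of T and natural killer cells, macrophages, neutrophils, B cells, endothelium and cholangiocytes passed (6, 6, 4, 4, 5 and 3). The marker of smallest p in each had 0.21 (Cd3d), -0.59 (Marco), -0.15 (Csf3r), 0.14 (Cd79a), -0.35 (Clec4g) and 0.22 (Sox9), and Alb of the hepatocytes had -0.39 at an adjusted p of 0.0748. Krt7, a cholangiocyte marker, was not well above background. Of the other stellate markers, Col1a1 had 0.46, Lrat 0.040 and Des 0.056, none passing, and Reln was not tested. Col3a1 and Col1a1 were the brightest of this list, with mean log2 intensities of 10.69 and 9.96, against 8.64 (Lrat) and 6.74 (Des). A sum of the list is therefore mostly that of the collagens. The summed normalised intensity of the 4 stellate markers ranged from 2887 to 4441 in RNA labelled AAV_Cre and from 2065 to 3510 in RNA labelled AAV_Null. Its part in the members' values was not tested. Medians of the macrophage, neutrophil and B cell lists were 0.27, 0.75 and 0.29 on array 3 and below 0 on the other arrays. Their part in the members' values was not tested.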

How the data were processed

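RNA from whole liver was hybridised to 4 Agilent arrays. Per the file headers, Feature Extraction 11.5.1.1 gave the mean spot intensity and local background of each dye, and the deposited log10 ratio of Cy5 over Cy3 from processed signals. The authors also deposited log2 values, with limma named in the submitters' processing notes. Their slope against the scanner log10 ratio was 3.34, 3.34, -3.29 and -3.41 on arrays 1 to 4, so they run as AAV_Cre over AAV_Null. Their normalisation steps stay unknown, and their column medians were -0.022, -0.038, 0.035 and 0.041.

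Background was corrected by normexp (offset 50) and arrays by loess, in limma 3.58.1 under R 4.3.3, from the mean intensities, with outlier spots left out. Channel intensities were made comparable between arrays by Aquantile. Probes well above background in at least 3 of 4 channels of 1 treatment, with 3 arrays measured, were fitted with a dye and a treatment effect (lmFit and eBayes, at most 2 residual degrees of freedom). Each gene was its brightest probe. The Benjamini-Hochberg adjustment ran over 16112 genes, with a threshold of 0.05. Of 43020 spots that were not controls, between 51.0% and 58.7% per channel were well above background and 0 were saturated. The number of arrays limits the precision, and the median SE was 0.06. Since a dye effect was fitted, p-values cover only the variation among arrays sharing an orientation. Each gene's variance was also drawn toward that of all genes, with 2.56 prior degrees of freedom. Nothing says the RNAs came from separate animals, so the variation covered may be technical. Over all genes 289 rose and 162 fell.

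The members and the gene lists were chosen with earlier results of these data known. Named by rule were all members, up to 6 called genes of each related list by size, the marker of smallest p, Trib1 and the 4 nearest genes of Phlda3 and Bax. Named outside this rule were Gtse1, Epha2, Dcxr, Mcl1, Bcl2l1, Bcl2l11, Fasl, Tnfsf10, Casp8, Casp9, Apaf1, Trp53, Krt7 and the further hepatocyte and stellate markers. Other uncalled genes of the related lists, some with larger ratios, were not named. The labels describe more than 1 labelling protocol and do not say which was used. Symbols were updated through RefSeq (GRCm38.p6): 27508 probes matched by accession, 3544 by symbol and 404 by synonym. The fit was also run on simulated data, with noise drawn from its own variance model and with its fitted dye effects. Such data cannot show whether that model holds for these arrays. Figures were drawn with matplotlib 3.10.9. The alternatives covered the dye effect, background, normalisation, filters, probes, variance model, weights, threshold and each array left out.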

Additional observations from a re-analysis of the deposited data

Results flagged for a closer look

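The 4 ratios of each member probe, named gene and list median were searched for a single array standing apart. This marked 3 of 36, where chance would give about 1.8 if the 4 arrays were independent. Arrays of 1 dye orientation resembled each other, so 1.8 is only a rough guide. Ccng1 had a log2 ratio of 1.26 on array 4, against 0.90 to 0.95 on the others. The median of the receptor signalling list was -0.16 on array 4, against 0.06 to 0.08. The median of the B cell markers was 0.29 on array 3, against -0.28 to -0.19. No member probe was among them.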

How the results depend on the processing

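Of the called members, Phlda3 and Tnfrsf10b kept direction and threshold in all 13 alternatives that used all 4 arrays, with log2 ratios of 2.28 to 2.39 and 0.93 to 1.31 and adjusted p up to 0.0207 and 0.0315. Bax kept them in 12 of 13 (0.61 to 0.65, adjusted p up to 0.0987, without a dye effect) and Aen in 11 of 12 (0.83 to 0.95, adjusted p up to 0.0564, with an offset of 16). The separate-channel fit gave no Aen value, since it needs 4 arrays. Trp53inp1 had 1.05 to 1.22 and adjusted p of 0.00127 to 0.0822. Perp passed as lower with a trended, robust variance (adjusted p = 0.0432) and in the separate-channel fit (adjusted p = 0.0208), so that 1 member fell in each.

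Counts moved by over 1.5 times as follows. Genes that rose and fell were 168 and 80 without a dye effect, 771 and 518 without background correction, 152 and 70 with an offset of 16, 464 and 278 with the scanner ratio, 795 and 522 with the deposited log2 values, 188 and 84 without a filter, 716 and 553 with the trended variance, 1322 and 1278 in the separate-channel fit, 8 and 2 at an adjusted p of 0.01, and 788 and 577 at 0.1. With median centring 495 rose. At 0.01, 1 member and 0 of the p53 arrest genes rose. The BCL2 genes that fell were 0 without a dye effect and at 0.01, 1 with an offset of 16 and without a filter, and 5 in the separate-channel fit and at 0.1. The receptor signalling genes that rose were 0 without a dye effect, with an offset of 16, with median centring, without a filter and at 0.01, and 3 in the separate-channel fit. The execution genes that rose were 0 without a dye effect and at 0.01, and 2 in the separate-channel fit. The cause was not tested.

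With each array left out, 0 to 1 member rose, 0 to 23 genes rose and 0 to 15 fell, 0 to 1 of the p53 arrest genes rose, 0 of the BCL2 genes rose or fell, and 0 of the receptor signalling and execution genes rose; each such fit has fewer samples. The log2 ratios then ranged from 2.21 to 2.35 for Phlda3, 0.57 to 0.65 for Bax, 0.87 to 1.00 for Tnfrsf10b, 0.93 to 1.04 for Aen and 0.92 to 1.39 for Trp53inp1. Leaving out each array gave -0.26 to 0.037 for Bbc3, above 0 without array 3, and -0.19 to 0.031 for Pmaip1, above 0 without array 2 and without array 4 (0.028). The fit uses the ratio within each array, which pairs its RNAs. Beyond that, no block could be fitted, since the labels give no further numbers.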
